A study of Arabidopsis thaliana and Nicotiana tabacum with 16 samples.

Results

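The 32 genes described here encode enzymes, subunits and carriers of starch synthesis and starch breakdown in Arabidopsis thaliana, out of 27628 genes in the count tables. They were picked by gene ID for their place in the pathway, 17 for synthesis and 15 for breakdown. Their ribosome-protected fragments (RPFs) were counted over coding sequences (CDS) in 14 Ribo-seq libraries of Col-0 wild-type seedlings, made while a ribosome profiling protocol was being refined. Undepleted RNase I libraries of 14-day seedlings (400, 550 and 700 U, and a repeat of the 700 U library made from the same fragments) were set against undepleted RNase I libraries of 8-day seedlings (62.5, 125 and 250 U). MNase libraries of 8-day seedlings (75, 150 and 300 U) were set against the same 8-day RNase I libraries. The rRNA-depleted libraries V1 and V2, and a ligation-free and a ligation-based kit library that were also rRNA-depleted, came per the labels from 14-day seedlings digested with 600 U of RNase I, and were set against the undepleted 14-day libraries. The 14-day seedlings grew in 12 h light and 12 h dark with no sucrose named for the medium, and the 8-day seedlings in 16 h light and 8 h dark with 1% sucrose, so that age, day length, sugar and nuclease dose cannot be told apart between them. Each dose is 1 library and the sources used here do not say whether doses came from separate cultures, so p-values measure only the spread between these libraries, which may be technical. The hour of harvest is not given in the sources used here.

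Leaves store part of the carbon fixed by day as starch in the chloroplast and consume it at night. Synthesis starts from hexose phosphates, passes through ADP-glucose made by ADP-glucose pyrophosphorylase, and needs starch synthases, branching enzymes and a debranching isoamylase to shape the granule. Breakdown starts with glucan kinases that loosen the granule surface, goes on with beta-amylases, debranching enzymes and phosphorylases, and ends with maltose and glucose that leave the chloroplast. Several of these genes are known for daily rhythms of their transcripts and for responses to sugar. RPF counts depend on transcript level and on translation together, and in whole seedlings fewer cells of a type and less RNA per cell cannot be told apart.

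The libraries held from 2338819 to 11583740 counts over CDS, and the starch genes took between 0.271% and 0.404% of them. All levels below are CPM (counts scaled to a common library size) on 1 TMM scale over the 14 libraries (TMM being a scaling factor that corrects for composition), and levels are compared between genes only after division by CDS length. V1 went against its label: over the 11650 genes that reached 10 counts in all libraries, its rank correlation was 0.974 to 0.978 with the 8-day RNase I libraries and 0.853 to 0.860 with the undepleted 14-day libraries (Spearman's rho, a description across genes). V2 reached 0.900 to 0.903 with the 8-day and 0.825 to 0.831 with the undepleted 14-day libraries. Both kit libraries, also labelled 14-day, stood nearer the 8-day libraries as well. The ligation-based one reached 0.911 to 0.915 with the 8-day and 0.879 to 0.880 with the undepleted 14-day libraries. For the ligation-free one these were 0.920 to 0.924 and 0.880 to 0.887. Results that rest on V1 and V2 are therefore given for both together and for each alone.

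**Figure D1:**
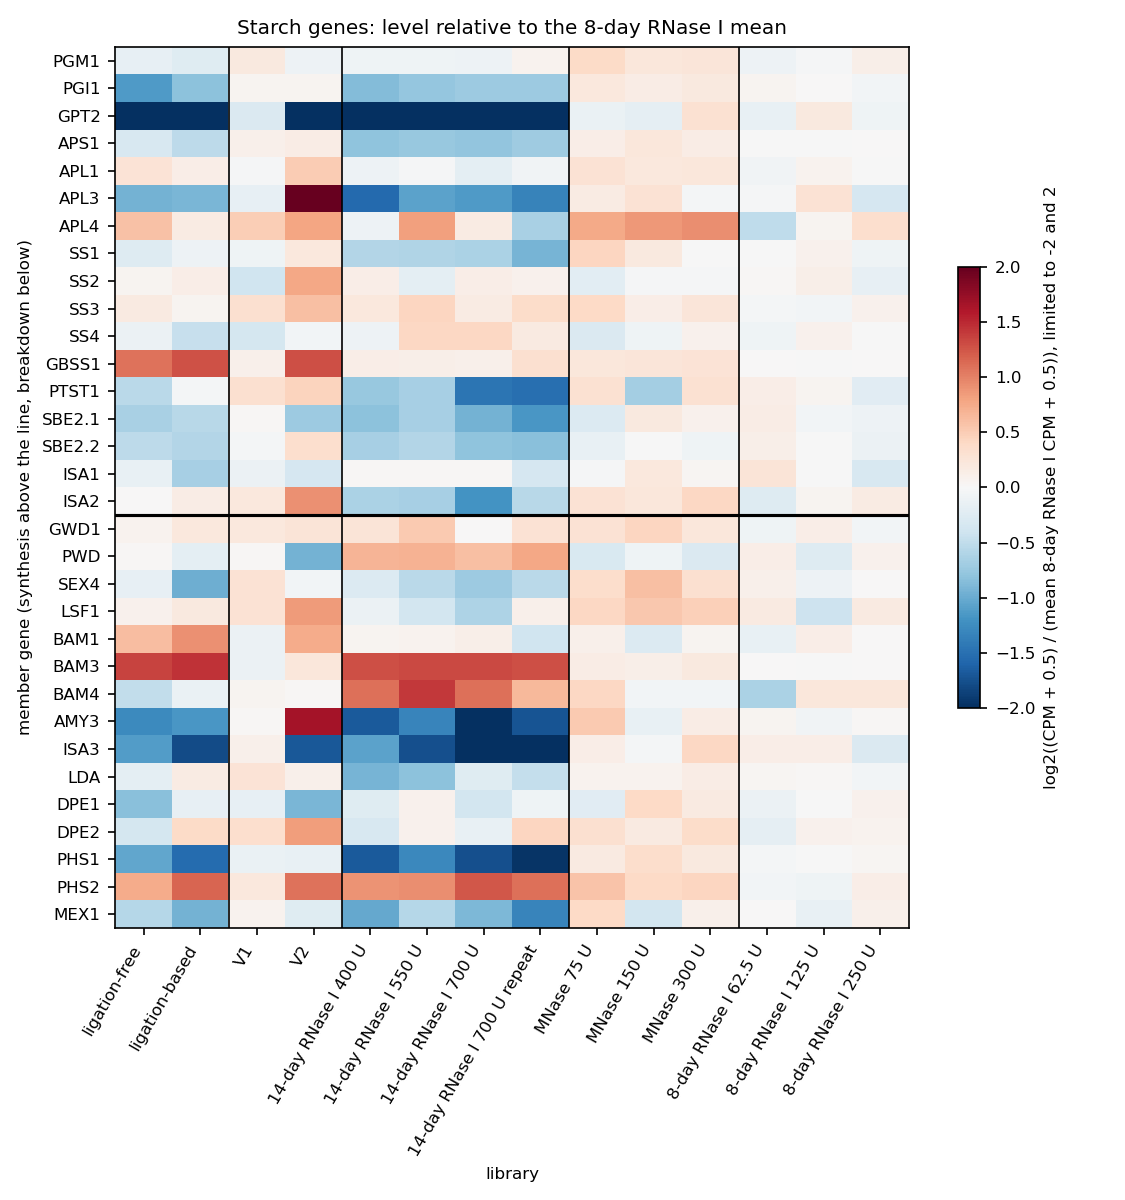
Level of each of the 32 starch genes (rows, synthesis above the heavy line and breakdown below) in each of the 14 libraries (columns), as log2 of the CPM plus 0.5 over the mean CPM of the 3 8-day RNase I libraries plus 0.5, with the color limited to -2 and 2. V1 has the pale colors of the 8-day libraries, while the undepleted 14-day libraries are blue for PGI1, APS1, AMY3, ISA3 and PHS1 and red for BAM3, BAM4, PHS2 and PWD.

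Per kb of CDS, 1 gene held most of the breakdown counts. BAM3 (AT4G17090, CDS at chr4:9605269-9607250, TAIR10), the beta-amylase known for most maltose release from starch at night, averaged 828.4 ± 8.43 CPM per kb in undepleted 14-day libraries and 333.5 ± 1.62 in 8-day RNase I libraries (SD, n = 3 each). These levels were 81.6% and 62.3% of the breakdown total. BAM1 (AT3G23920), a beta-amylase linked to daytime and stress-related breakdown, came next at 72.2 ± 1.55 CPM per kb in undepleted 14-day libraries and 68.5 ± 6.43 in 8-day libraries (SD, n = 3 each). Counts for synthesis were spread over more genes. GBSS1 (AT1G32900), the granule-bound synthase that makes amylose, led with 223.7 ± 2.04 CPM per kb at 14 days, and APS1 (AT5G48300), the small subunit of ADP-glucose pyrophosphorylase, led with 237.2 ± 0.80 at 8 days (SD, n = 3 each). APL1 (AT5G19220), the main leaf large subunit, held 147.0 ± 8.47 CPM per kb at 14 days and 158.1 ± 7.82 at 8 days (SD, n = 3 each).

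The first comparison asked how ribosome occupancy of the starch genes differed between 14-day and 8-day seedlings. Among the 17 synthesis genes 9 were lower and none was higher at 14 days, while among the 15 breakdown genes 6 were lower and 4 were higher (edgeR quasi-likelihood test, Benjamini-Hochberg adjusted p under 0.05). Over all 15460 genes tested, 25.1% were called lower and 25.3% higher. The members' shares were 46.9% lower and 12.5% higher. Their median log2 fold change was -0.62 for synthesis and -0.19 for breakdown, against 0.01 over all genes tested. All 32 members passed the filter on low counts, but 5 of them (GPT2, APL3, APL4, PTST1 and ISA3) did not reach 10 counts in all 3 libraries of each age. GPT2, APL3 and PTST1 were under 10 counts in every 14-day library and passed through the 8-day libraries alone, and ISA3 reached 10 in 1 of the 14-day libraries, so their 4 lower calls are not independent of the filter. Among the 27 other members, 6 of 13 synthesis genes and 5 of 14 breakdown genes were lower and 4 breakdown genes were higher, with medians of -0.11 for synthesis and -0.17 for breakdown. Of all 12401 genes with at least 10 counts in each of these libraries, 23.8% were lower and 28.7% higher. Where the ages are said below not to overlap, the share of all genes without overlap was not computed.

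Hexose phosphate supply held the widest gap. GPT2 (AT1G61800), which carries glucose 6-phosphate into the plastid and is known to be induced by sugar, had 0 counts in each of the 3 undepleted 14-day libraries. In 8-day RNase I libraries it had 11.2, 14.3 and 11.7 CPM at 62.5, 125 and 250 U. Set against a floor of 3 counts per library, which is 1.10 CPM, GPT2 was at least 11.3-fold lower at 14 days. The repeat of the 700 U library and both kit libraries also had 0 counts, V2 had 4, and V1 had 10.1 CPM from 73 counts. PGI1 (AT4G24620), the plastid phosphoglucose isomerase, averaged 73.1 ± 3.54 CPM at 14 days and 126.4 ± 4.97 CPM at 8 days (SD, n = 3 each), 1.73-fold lower. PGM1 (AT5G51820), the plastid phosphoglucomutase next in the pathway, was not called, with a log2 fold change of -0.10 (95% interval -0.26 to 0.05).

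The promoter window of GPT2 is shown because GPT2 had the largest change, and it holds an evening element, a sequence bound by clock factors. The window runs from 250 bases before to 50 bases after the gene start of RefSeq (TAIR10.1), 5′ to 3′ on the coding strand, with the motif in capitals.
GPT2, chr1:22824164-22824463, + strand: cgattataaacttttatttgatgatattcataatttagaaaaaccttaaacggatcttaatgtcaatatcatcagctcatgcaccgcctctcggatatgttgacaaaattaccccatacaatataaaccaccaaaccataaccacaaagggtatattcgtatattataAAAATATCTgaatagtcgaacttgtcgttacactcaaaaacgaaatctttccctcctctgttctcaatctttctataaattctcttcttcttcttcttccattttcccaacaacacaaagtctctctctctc
Of 4 motifs searched on both strands, the evening element AAAATATCT lay in 6 of 32 member windows (18.8%) and in 2.82% of 27443 nuclear gene windows of the same length. It was found in PGM1, GPT2, GWD1, PWD, ISA3 and DPE1. Of these, GPT2 and ISA3 were called lower at 14 days, PWD was called higher, and PGM1, GWD1 and DPE1 were not called. A match of letters is a description and does not show a bound site.

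Of the 4 members that encode subunits of ADP-glucose pyrophosphorylase, APS1 and APL3 were called. APS1 had 212.0, 218.7 and 213.8 CPM in the 400, 550 and 700 U libraries at 14 days, against 369.2, 369.3 and 371.4 CPM in the 62.5, 125 and 250 U libraries at 8 days. All 14-day values lay below all 8-day values, by 1.73-fold (log2 fold change -0.79 ± 0.07, SE; edgeR, adjusted p = 2.1e-15). APL3 (AT4G39210), a large subunit known mostly from heterotrophic tissue and from sugar induction, had 1.92, 2.89 and 2.74 CPM at 14 days and 6.48, 8.14 and 5.14 CPM at 8 days. With 5, 7 and 9 counts at 14 days it passed the filter only through the 8-day libraries, and its call was lost when all groups were fitted together. APL1 and APL4 were not called. A further large subunit gene outside the members, APL2 (AT1G27680), had 7.28, 7.01 and 6.70 CPM at 14 days and 10.3, 12.3 and 15.0 CPM at 8 days and was called lower (edgeR, adjusted p = 0.0037).

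Among the chain-building enzymes, both branching enzymes fell and 1 starch synthase of 4 did. SBE2.1 (AT2G36390) averaged 25.7 ± 2.54 CPM at 14 days and 45.3 ± 4.34 at 8 days, and SBE2.2 (AT5G03650) 77.5 ± 6.06 CPM at 14 days and 124.4 ± 9.68 CPM at 8 days (SD, n = 3 each). SS1 (AT5G24300), which extends short chains, was 1.54-fold lower (log2 fold change -0.62 ± 0.10, SE). SS2, SS3 and SS4 had log2 fold changes of 0.04, 0.26 and 0.27, none of them called, the smallest adjusted p being 0.057 for SS3 (edgeR). ISA2 (AT1G03310), the non-catalytic partner in the isoamylase complex, had 9.20, 9.08 and 6.09 CPM at 14 days and 12.1, 15.2 and 16.4 CPM at 8 days, with no overlap. ISA1 (AT2G39930), its catalytic partner, averaged 25.2 ± 0.07 CPM at 14 days and 24.8 ± 5.07 CPM at 8 days (SD, n = 3 each). PTST1 (AT5G39790), which brings GBSS1 to the granule, had 2.30, 2.48 and 1.22 CPM at 14 days and 4.69, 4.40 and 3.52 CPM at 8 days. It had 6, 6 and 4 counts at 14 days and passed the filter only through the 8-day libraries, and its call was lost in 5 of 6 fits that left out 1 library (without any 1 of the 14-day libraries, or without the 62.5 or 125 U library), with log2 fold changes from -1.27 to -0.79. GBSS1 itself was not called, at 409.4 ± 3.72 CPM at 14 days and 377.1 ± 1.98 CPM at 8 days (SD, n = 3 each).

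**Figure D2:**
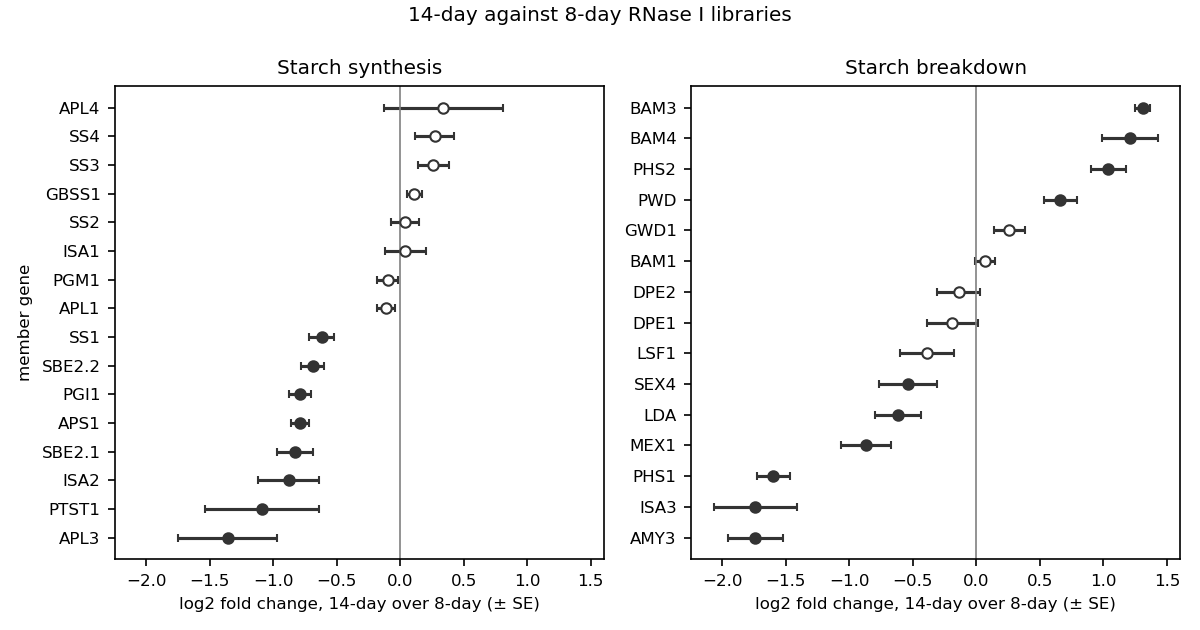
Log2 fold change (horizontal axis) of 31 starch genes (rows), undepleted 14-day over 8-day RNase I libraries (3 each), with the standard error as bars, synthesis on the left and breakdown on the right. Filled points passed the adjusted p of 0.05 and open points did not. GPT2, at 0 counts in every 14-day library, is left out because its fold is a bound, and APL3, PTST1 and ISA3 had few counts at 14 days. No synthesis gene has a filled point to the right of 0, whereas breakdown has 4 to the right and 6 to the left.

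In breakdown, BAM3, BAM4, PHS2 and PWD rose and 6 other genes fell. BAM3 had 1346.0, 1368.9 and 1371.0 CPM at 14 days, against 548.9, 545.4 and 550.7 CPM at 8 days, 2.47-fold higher (log2 fold change 1.31 ± 0.06, SE; edgeR, adjusted p = 6.2e-28). BAM4 (AT5G55700), a beta-amylase family member without catalytic activity that is needed for normal breakdown, had 18.8, 23.5 and 18.9 CPM at 14 days and 5.36, 10.1 and 10.1 CPM at 8 days. That is 2.32-fold higher, with no overlap. BAM1 was not called, with a log2 fold change of 0.07 (95% interval -0.09 to 0.23). PHS2 (AT3G46970), the cytosolic glucan phosphorylase, had 41.4, 42.1 and 52.4 CPM at 14 days and 21.0, 20.7 and 24.1 CPM at 8 days, with no overlap.

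Its plastid counterpart PHS1 (AT3G29320) went the other way. PHS1 had 21.5, 28.5 and 20.4 CPM at 14 days, against 68.2, 70.0 and 72.1 CPM at 8 days, 3.04-fold lower (log2 fold change -1.60 ± 0.13, SE; edgeR, adjusted p = 1.8e-16). AMY3 (AT1G69830), the plastid alpha-amylase, had 6.90, 9.08 and 5.48 CPM at 14 days and 24.1, 22.2 and 23.6 CPM at 8 days, 3.34-fold lower. ISA3 (AT4G09020), the isoamylase that removes branches during breakdown, had 4.98, 2.89 and 2.13 CPM at 14 days and 12.1, 12.1 and 8.96 CPM at 8 days. None of the 3 overlapped between ages, and ISA3 had few counts at 14 days. MEX1 (AT5G17520), the maltose exporter of the chloroplast envelope, averaged 11.0 ± 1.91 CPM at 14 days and 19.9 ± 1.71 CPM at 8 days (SD, n = 3 each). LDA, a limit dextrinase, and SEX4, a glucan phosphatase, were called lower at log2 fold changes of -0.62 and -0.54. The LDA call was lost without the 400 U library (-0.48), and the SEX4 call in 4 of 6 such fits (without the 550, 700, 62.5 or 250 U library), with log2 fold changes from -0.67 to -0.40.

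Of the 2 glucan kinases, which phosphorylate the granule in sequence, PWD (AT5G26570) rose to 47.8 ± 1.62 CPM at 14 days, against 30.0 ± 4.27 CPM at 8 days (SD, n = 3 each). GWD1 (AT1G10760), which acts before PWD, had 57.5 ± 10.2 CPM at 14 days and 47.3 ± 4.01 CPM at 8 days and was not called (log2 fold change 0.26, 95% interval 0.03 to 0.50; edgeR, adjusted p = 0.057). LSF1 and the glucanotransferases DPE1 and DPE2 were not called either. In all, 15 of the 19 calls held under every setting and left-out library, those of GPT2 and ISA3 among them.

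The windows of PHS1 and ISA3 are shown because both genes were called lower and both windows hold G-boxes, a motif bound by bZIP and bHLH factors. Capitals mark the G-box CACGTG, the evening element (reverse in ISA3) and, in PHS1, the TATCCA element on the reverse strand, which shares 2 bases with the middle G-box.
PHS1, chr3:11252557-11252856, + strand: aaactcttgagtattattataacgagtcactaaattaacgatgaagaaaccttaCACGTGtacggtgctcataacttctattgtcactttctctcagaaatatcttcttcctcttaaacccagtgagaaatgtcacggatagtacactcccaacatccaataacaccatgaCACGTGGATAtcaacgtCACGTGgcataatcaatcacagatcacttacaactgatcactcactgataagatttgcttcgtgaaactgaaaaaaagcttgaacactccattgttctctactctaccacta
ISA3, chr4:5783659-5783958, + strand: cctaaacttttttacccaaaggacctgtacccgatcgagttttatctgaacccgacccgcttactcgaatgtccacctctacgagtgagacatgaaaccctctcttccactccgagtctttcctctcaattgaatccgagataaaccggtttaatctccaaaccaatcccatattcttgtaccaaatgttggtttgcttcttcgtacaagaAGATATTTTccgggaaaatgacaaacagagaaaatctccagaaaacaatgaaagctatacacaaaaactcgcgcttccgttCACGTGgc
The G-box lay in 11 of 32 member windows (34.4%), 6 of synthesis and 5 of breakdown genes, and in 7.68% of all windows. The element TATCCA lay in 3 member windows (9.38%, against 16.1% of all) and the CCA1-binding site AAAAATCT in 4 (12.5%, against 7.88%). Of the members with a G-box, PGI1, SS1, PTST1, SBE2.1, ISA3 and PHS1 were called lower at 14 days and PHS2 was called higher. The others, SS3, SS4, LSF1 and DPE1, were not called. Over all 32 members 46.9% were called lower and 12.5% higher, and a link between motif and call was not tested. The windows of APL3, BAM4 and AMY3 held none of the 4 motifs.

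Genes of other processes moved between the same libraries, in lists that were drawn up with earlier results of these data known. All 8 sugar starvation genes were called higher at 14 days, and their summed level was 1887.3 to 1981.3 CPM at 14 days and 403.9 to 411.6 CPM at 8 days. Root markers were called lower in 6 of 6 tested of 8, summing to 807.6 to 885.3 CPM at 14 days and 1670.0 to 1742.9 CPM at 8 days. PYK10 alone held 795.7 to 873.4 CPM of these sums at 14 days and 1635.4 to 1697.7 CPM at 8 days. COBL9, SKOR and TIP2;3 had at most 1.52 CPM at 14 days and passed the filter through the 8-day libraries alone. Their lower calls are not independent of the filter. At 14 days 4 root markers were at 0 in at least 1 library, and none was at 0 in all 3. Green tissue markers were called higher in 3 of 6, with sums of 38669.8 to 43324.7 CPM at 14 days and 32001.7 to 34149.1 CPM at 8 days, none at 0. Of 4 morning clock genes 3 were called higher, whereas PRR9 had 0.61 to 1.24 CPM at 14 days and 25.7 to 29.2 CPM at 8 days. Among 6 afternoon and evening clock genes, of which 3 were tested, TOC1 was called higher and GI lower. GI had 0 counts in 2 of the 3 undepleted 14-day libraries and 8.05 to 10.4 CPM at 8 days. PRR9 and GI also passed the filter through the 8-day libraries alone. The part of tissue, sugar and time of day in the starch gene differences was not tested.

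Other genes of starch and hexose metabolism, listed beside the members, showed both directions as well. Of 26 such genes 22 were tested, 12 were called lower and 4 higher at 14 days. BAM9 (AT5G18670), a beta-amylase family member without catalytic activity, had 814.6, 819.3 and 851.8 CPM at 14 days and 278.9, 306.8 and 287.9 CPM at 8 days. ESV1 (AT1G42430), a starch-binding protein that protects granules from untimely breakdown, had 88.9, 98.2 and 120.0 CPM at 14 days and 24.4, 23.6 and 24.1 CPM at 8 days. SBE3, a member of the branching enzyme family, had 3.07, 2.89 and 3.05 CPM at 14 days and 7.60, 12.1 and 13.5 CPM at 8 days. In each of the 3 genes the ages did not overlap. SBE3 did not reach 10 counts in every 14-day library. BAM5, another of the 12 genes called lower, had at most 0.38 CPM in 14-day libraries and passed the filter through the 8-day libraries alone. The lower calls of SBE3 and BAM5 are not independent of the filter.

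**Figure D3:**
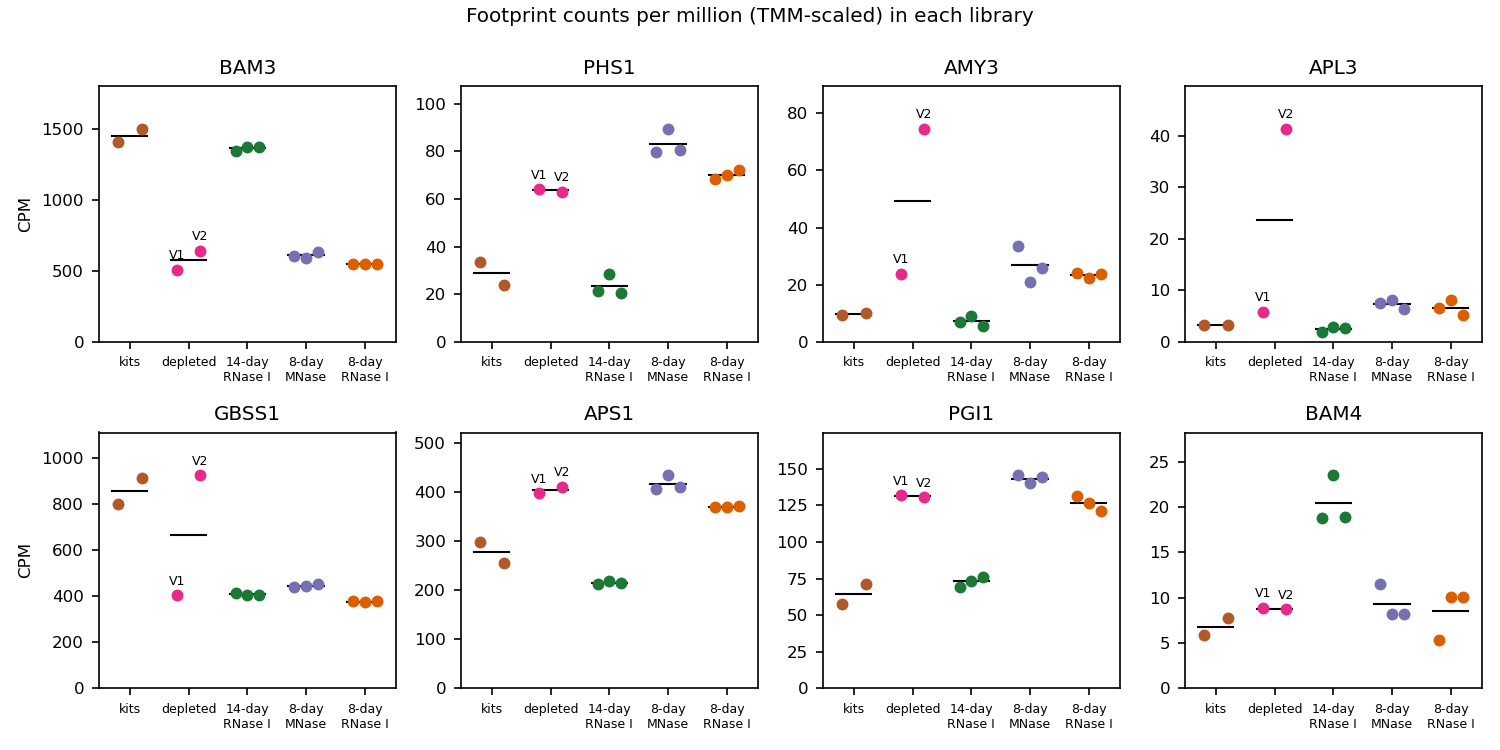
CPM of 8 starch genes in each library, by group (kits, rRNA-depleted, undepleted 14-day RNase I, 8-day MNase, 8-day RNase I); points are libraries, lines are group means, and the repeat library is not shown. BAM3 stands between 1346.0 and 1500.7 CPM in kit and undepleted 14-day libraries and between 507.1 and 641.0 CPM in all others, while APL3 and AMY3 are highest in V2 (41.4 and 74.6 CPM).

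The balance of the arms was described by the log2 ratio of breakdown to synthesis, each summed as counts per kb of CDS. The ratio was 0.41, 0.41 and 0.45 in the 400, 550 and 700 U libraries at 14 days and 0.30 in the repeat of the 700 U library. It was -0.82, -0.82 and -0.78 in the 8-day RNase I libraries and -0.83, -0.90 and -0.80 in the 8-day MNase libraries. V1 and V2 stood at -0.92 and -1.05, near the 8-day libraries and apart from the undepleted 14-day ones. The ligation-free library at -0.01 and the ligation-based one at 0.08 lay between. This order did not hold without BAM3 and GBSS1, where the ligation-based library at -1.30 lay above every undepleted 14-day library (-1.70 to -1.49), the ligation-free one at -1.58 lay among them, and V2 at -1.66 stood above the 8-day libraries (-1.96 to -1.80). Without those genes the mean ratio was -1.51 ± 0.02 in undepleted 14-day libraries and -1.86 ± 0.05 in 8-day RNase I libraries (SD, n = 3 each), a gap of the same sign and a smaller size.

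**Figure D4:**
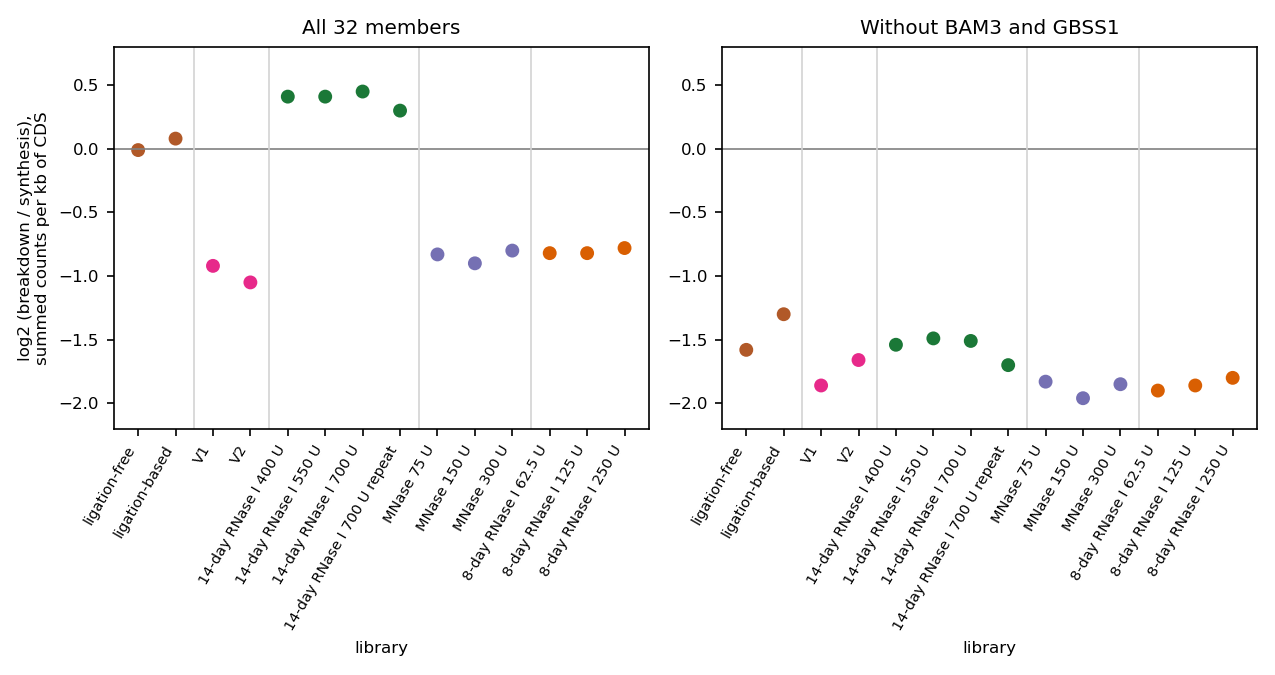
Log2 ratio of breakdown to synthesis, each summed as counts per kb of CDS, in each of the 14 libraries, with all 32 members on the left and without BAM3 and GBSS1 on the right; each point is 1 library. With all members the undepleted 14-day libraries lie between 0.30 and 0.45, and the 8-day libraries, V1 and V2 between -1.05 and -0.78. The ligation-free and ligation-based kit libraries, also rRNA-depleted, lie at -0.01 and 0.08.

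MNase and RNase I were compared at 8 days to see how far the nuclease alters these counts. MNase gave 3 higher calls among the 32 genes and no lower call, and 14 members had an unadjusted p under 0.05 (edgeR), which is 43.8% of them against 11.6% of all genes tested. Over all 16738 genes tested, 1.30% were called higher and 0.633% lower. GBSS1 averaged 446.8 ± 7.03 CPM in the MNase libraries, against 377.1 ± 1.98 CPM after RNase I (SD, n = 3 each), 1.18-fold higher (edgeR, adjusted p = 0.015). APL1 had 302.0, 287.4 and 290.8 CPM with MNase, against 236.0, 260.4 and 246.3 CPM after RNase I. PGM1 had 184.2, 166.0 and 167.6 CPM with MNase, against 131.4, 138.7 and 153.6 CPM after RNase I. In 16 of the 32 members every MNase library lay above every RNase I library, which held for 9.15% of all genes tested, and no member showed the reverse. Apart from APL4, at 0.95 with 1.34 to 4.45 CPM in these libraries, the log2 fold changes lay between -0.23 and 0.48, with medians of 0.17 for synthesis and 0.19 for breakdown against -0.01 over all genes. All 3 calls were lost without the 150 U MNase library, without the 62.5 U or the 125 U RNase I library, and with all groups in 1 fit. Without the 75 U MNase or the 250 U RNase I library 1 call was left. DESeq2 called 5 members.

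The rRNA-depleted libraries V1 and V2, against the undepleted 14-day libraries, differ by depletion, a narrower fragment size and dose, and, as V1's likeness to the 8-day libraries leaves the seedling material in doubt, possibly by material, which cannot be told apart. Of 31 members tested 13 were called higher and 3 lower, 7 of the higher ones in synthesis and 6 in breakdown. Over all 15532 genes tested 10.9% were called higher and 11.7% lower. The median log2 fold change was 0.62 for synthesis and 0.69 for breakdown, against 0.03 over all genes. APL3 and PTST1 were under 10 counts in every undepleted library and passed the filter through V1 and V2 alone, and APL4 and ISA3 reached 10 in 1 undepleted library each. Without these 4, 11 of 27 members were higher (5 in synthesis) and 3 lower, with medians of 0.54 and 0.50, against 11.1% higher and 12.4% lower over all genes that reached 10 counts in at least 2 libraries of each group. These comparisons share their undepleted libraries with the comparison of ages. Without any 1 of the undepleted libraries 6 members were called. The calls of BAM3, PHS1 and APS1 held under every setting, and each of the other 13 was lost without at least 1 undepleted library.

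The 3 lower calls were the beta-amylases BAM3 and BAM4 and the kinase PWD. BAM3 had 507.1 CPM in V1 and 641.0 CPM in V2, against 1346.0, 1368.9 and 1371.0 CPM in the undepleted libraries, a log2 fold change of -1.23 ± 0.17 (SE; edgeR, adjusted p = 0.0023). For BAM4, V1 and V2 had 8.87 and 8.71 CPM, and the undepleted libraries 18.8 to 23.5 CPM. PWD had 30.6 CPM in V1 and 15.3 CPM in V2, against 46.0 to 49.1 CPM in undepleted libraries. Of the higher calls, PHS1 had 64.1 and 63.1 CPM in V1 and V2, against 20.4 to 28.5 CPM in undepleted libraries (log2 fold change 1.46 ± 0.19, SE; edgeR, adjusted p = 0.0021). APS1 had 397.4 and 410.4 CPM in V1 and V2, against 212.0 to 218.7 CPM. PGI1 had 131.9 and 130.7 CPM, against 69.4 to 76.4 CPM. These values of V1 and V2 lay close to each other for BAM4, PHS1, APS1 and PGI1.

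In other members the depleted libraries differed from each other. APL3 had 5.82 CPM in V1 and 41.4 CPM in V2, against 1.92 to 2.89 CPM in undepleted libraries. AMY3 had 23.8 CPM in V1 and 74.6 CPM in V2, against 5.48 to 9.08 CPM. Both were thus above the undepleted range in each library, and far more so in V2. ISA2 had 16.9 and 27.8 CPM, LSF1 20.5 and 30.4 CPM and PTST1 5.40 and 5.89 CPM in V1 and V2, all above the undepleted libraries. GBSS1 had 405.9 CPM in V1 and 926.6 CPM in V2, against 406.8 to 413.6 CPM in undepleted libraries, and was not called (edgeR, adjusted p = 0.11). ISA3 showed the opposite order, 11.8 CPM in V1 and 3.06 CPM in V2, against 2.13 to 4.98 CPM, and was not called (edgeR, adjusted p = 0.16).

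Each depleted library was also fitted alone against the same 3 undepleted libraries, the spread then coming from the undepleted libraries only. V1 alone gave 22 calls among 32 members (16 higher, 6 lower), and V2 alone gave 20 among 31 (16 higher, 4 lower). Without members that passed the filter through the depleted library alone (GPT2, APL3 and PTST1 in V1, APL3 and PTST1 in V2), 13 were higher and 6 lower of 29 in V1, and 14 higher and 4 lower of 29 in V2. In V1, 18% of all genes were called higher and 20.3% lower, and in V2 19.8% higher and 20.5% lower. The fits share their undepleted libraries. SS2 was called in opposite directions, at -0.46 in V1 and 0.71 in V2 (edgeR, adjusted p = 0.015 and 0.00014). GPT2, at 73 counts in V1, was at least 9.2-fold above the undepleted floor there. Called in V2 and not in V1 were, among others, GBSS1 (1.15 on the log2 scale in V2, -0.04 in V1) and BAM1 (0.63 in V2, -0.23 in V1). ISA3, SBE2.1 and PHS2 were called in V1 and not in V2. The difference between V1 and V2 was not tested.

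**Figure D5:**
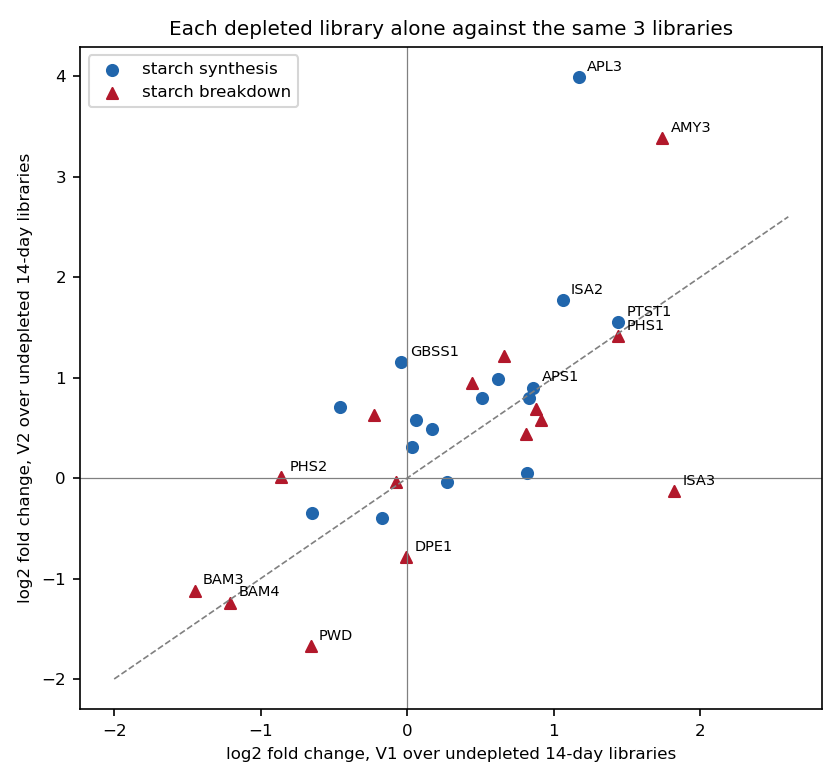
Log2 fold change of each of the 31 starch genes tested in both (GPT2 was not tested in V2) in V2 (vertical) against that in V1 (horizontal), each over the same 3 undepleted 14-day libraries, with circles for synthesis, triangles for breakdown and a dashed line of equality. APL3 (1.17 in V1, 3.99 in V2) and AMY3 (1.74 and 3.38) stand above the line and ISA3 (1.82 and -0.13) below it; the axes share their undepleted libraries.

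Set against the 8-day RNase I mean, V1 was close in every member measured. All 31 members with at least 10 counts in V1 and in each 8-day library lay within 1.5-fold of that mean, as did 94.3% of 14620 genes (CPM by library total). Their median absolute log2 ratio was 0.13, against 0.17 over all genes. Against the undepleted 14-day mean, 11 of 27 members in V1 were within 1.5-fold, and 61% of all genes. For V2, 20 of 30 members and 62.8% of all genes were within 1.5-fold of the 8-day mean, and 13 of 27 members and 51.8% of all genes within 1.5-fold of the undepleted 14-day mean. On the TMM scale the members of V2 within 1.5-fold were 16 of 30 (68.5% of all genes) and 8 of 27 (56.2%), while those of V1 stayed at 31 of 31 (94.2%) and 11 of 27 (61%). The sugar starvation genes summed to 378.4 CPM in V1 and 207.5 CPM in V2, against 1887.3 to 1981.3 CPM in undepleted 14-day libraries. Root markers summed to 1793.9 CPM in V1 and 1436.8 CPM in V2, against 807.6 to 885.3 CPM, with none at 0 in either. PYK10 alone held 1757.6 CPM of the sum in V1 and 1428.1 CPM in V2. Other root markers went both ways in V2, with CASP1 at 0.71 CPM, against 3.30 to 4.26 CPM, and SKOR at 2.12 CPM, against 0.00 to 0.61 CPM. With V1 and V2 together 3 of 8 root markers were tested and 1 was called, higher. The clock gene PRR9 had 32.7 CPM in V1 and 33.2 CPM in V2, against 0.61 to 1.24 CPM. With V1 and V2 together, the other morning clock genes CCA1, LHY and RVE8 were called lower, at log2 fold changes of -0.84, -1.18 and -1.16. Of 4 afternoon and evening clock genes tested, GI and PRR7 were called higher and TOC1 lower, at 6.62, 4.69 and -1.47. PRR9, GI and PRR7 had at most 1.24 CPM in undepleted libraries and passed the filter through V1 and V2 alone. Green tissue markers summed to 30052.9 CPM in V1 and 53093.7 CPM in V2, below and above the undepleted range of 38669.8 to 43324.7 CPM. The part of these differences in the starch gene values was not tested.

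With V1 over V2, 20 of 31 members were within 1.5-fold, 7 were higher and 4 lower, while 62.6% of 14682 genes were within 1.5-fold (CPM by library total). On that scale the median log2 ratio over all genes was 0.28, and on the TMM scale, where it was -0.05, 4 members were higher (SBE2.1, PWD, ISA3 and DPE1) and 7 lower (APL3, SS2, GBSS1, ISA2, BAM1, AMY3 and PHS2). The balance of higher and lower members thus turned with the scale. By library total, ISA3 was 4.81-fold higher in V1 (85 counts against 13), PWD 2.50-fold and DPE1 2.14-fold. APL3 was 5.70-fold lower in V1 (42 counts against 176) and AMY3 2.51-fold lower (172 against 317). BAM3 differed by 1.01-fold by library total. With 1 library each there is no replicate check on these ratios.

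The kit libraries, against the same undepleted libraries, gave 6 higher and 2 lower calls among 30 members tested. Both kit libraries differ from the undepleted ones by depletion, a narrower fragment size and dose, and the ligation-free one also by library method. As both stood nearer the 8-day libraries in rank correlation, they may differ by seedling material or harvest as well. The effects of these differences cannot be told apart. The kits are different methods and not replicates of each other, so their difference is part of the spread in this fit. Over all 14823 genes tested 13.2% were called higher and 14.6% lower. The median log2 fold change was 0.15 for synthesis and 0.14 for breakdown, against 0.00 over all genes. GPT2 and APL3 were not tested: GPT2 had 0 counts in all 5 libraries, and APL3 had 3.18 and 3.25 CPM in the ligation-free and ligation-based library.

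GBSS1 had 802.4 CPM in the ligation-free and 913.1 CPM in the ligation-based library, against 406.8 to 413.6 CPM in undepleted libraries, 2.12-fold higher (log2 fold change 1.08 ± 0.11, SE; edgeR, adjusted p = 7.7e-08). BAM1 had 182.4 and 223.2 CPM in the ligation-free and ligation-based library, against 122.7 to 127.6 CPM. ISA2 had 14.6 and 16.2 CPM, against 6.09 to 9.20 CPM. APS1, APL1 and SS1 were called higher at log2 fold changes of 0.39, 0.33 and 0.45. APS1 had 297.7 and 256.1 CPM, APL1 300.0 and 271.1 CPM, and SS1 68.5 and 75.9 CPM in the ligation-free and ligation-based library. Each of the 3 genes lay above the undepleted range of 212.0 to 218.7, 216.5 to 243.0 and 52.4 to 54.1 CPM.

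BAM4 had 5.91 and 7.71 CPM in the ligation-free and ligation-based library, against 18.8 to 23.5 CPM in undepleted libraries, 3.01-fold lower (log2 fold change -1.59 ± 0.27, SE; edgeR, adjusted p = 8.5e-05). PWD had 30.5 and 26.0 CPM, against 46.0 to 49.1 CPM. BAM3, by contrast, had 1403.5 and 1500.7 CPM and was not called (log2 fold change 0.11, 95% interval -0.11 to 0.33). PHS1 at 33.7 and 23.9 CPM, AMY3 at 9.33 and 10.1 CPM, and PGI1 at 57.5 and 71.4 CPM were not called either, and lay below every 8-day library. The calls of GBSS1, BAM1, BAM4 and PWD held under every setting, while the other 4 were lost under at least 1. The ISA2 call was lost without the 700 U library, at a log2 fold change of 0.76. The APS1 call was lost without the ligation-free, 400 U or 550 U library, with log2 fold changes from 0.27 to 0.48 over the 5 fits without 1 library. The APL1 call (0.25 to 0.39) was lost without the ligation-free or any 1 undepleted library, and the SS1 call (0.37 to 0.53) without the ligation-based or any 1 undepleted library. Without the 550 U library 5 members were called.

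Beside these calls, sugar starvation genes summed to 534.9 to 613.6 CPM in the kit libraries and 1887.3 to 1981.3 CPM in undepleted 14-day libraries. Root markers summed to 956.4 to 1049.0 CPM in kit libraries and 807.6 to 885.3 CPM in undepleted ones, with 1 of 8 at 0 in both kit libraries. PYK10 alone held 944.6 and 1037.3 CPM of these sums in the ligation-free and ligation-based library. None of the 3 root markers tested was called. PRR9 had 77.3 and 67.0 CPM in the ligation-free and ligation-based library, against 0.61 to 1.24 CPM. The other morning clock genes CCA1, LHY and RVE8 were not called. Of 4 afternoon and evening clock genes tested, GI and PRR7 were called higher and TOC1 lower, at log2 fold changes of 6.99, 3.68 and -1.31. PRR9, GI and PRR7 had at most 1.24 CPM in undepleted libraries and passed the filter through the kit libraries alone. Green tissue markers summed to 28844.7 to 34548.1 CPM in kit libraries, against 38669.8 to 43324.7 CPM, and 2 of 6 were called lower. Of the 26 other starch genes 22 were tested, and 6 were called higher and 4 lower. Over all genes tested 13.2% were called higher and 14.6% lower. The part of these differences was not tested.

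Between the kits, 23 of 28 members with at least 10 counts in both were within 1.5-fold, as were 81.9% of 13019 genes, and the median log2 ratio of ligation-free over ligation-based was 0.09 for synthesis and -0.04 for breakdown (CPM by library total). SEX4 was 1.94-fold higher, with 55 counts in the ligation-free and 17 in the ligation-based library. In the repeat of the 700 U library over its first version, which share their fragments, 24 of 27 members were within 1.5-fold, against 77.7% of 13680 genes. The 3 outside were ISA2 (1.66-fold), LSF1 (1.74-fold) and DPE2 (1.55-fold), all higher in the repeat by library total. Over the 4 comparisons 7 members were called in none: APL4, SS2, SS3, SS4, ISA1, GWD1 and DPE1.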

How the data were processed

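Per the paper's methods, the authors trimmed adapters and unique molecular identifiers with cutadapt, removed reads of rRNA, tRNA and snoRNA with STAR, aligned the rest to TAIR10 with STAR, keeping 1 alignment per multimapping read, and deposited counts of sense reads over CDS made by featureCounts; the sources used here give no versions of these tools. These counts were tested as deposited with edgeR 4.0.16 in R 4.3.3 (quasi-likelihood test, TMM factors), on genes with at least 10 counts in as many libraries as the smaller group holds, with Benjamini-Hochberg adjustment over all genes tested in each of 4 comparisons. Depth was 2338819 to 11583740 counts per library, and the number of libraries limits the precision. Promoter windows were read from RefSeq TAIR10.1. The fits were tested on simulated counts. Of 100 genes given a log2 change of 1, the depletion fit recovered 47 and the other fits 90 to 99. Changes of that size can therefore go uncalled between depleted and undepleted libraries. The changed genes were drawn only from genes with higher mean counts, and a common dispersion (spread between libraries) was used for all genes. Recovery was thus not tested for members with few counts. Alternatives were DESeq2 1.42.0, other scaling factors, nuclear genes only, no filter, all groups in 1 fit, the repeat library and leaving out each library; ratios of libraries on the TMM scale were chosen after seeing the data. Values in every library were given for up to 10 called members by size of change in the age, depletion and kit comparisons and for the highest members per kb of each arm; those of PGI1 and ISA3 in the depletion comparison, of the MNase calls and of uncalled members beside the kits were added after their values were seen. The members and gene lists were chosen with earlier results of these data known. The tobacco libraries were not used here.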

Additional observations from a re-analysis of the deposited data

Results flagged for a closer look

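In SEX4 and DPE2 the kit libraries lay on opposite sides of the 400, 550 and 700 U libraries of 14-day seedlings. SEX4, a glucan phosphatase, had 12.5 CPM in the ligation-free library and 6.90 CPM in the ligation-based one, a log2 ratio of 0.86 on the TMM scale, against 8.22 to 11.5 CPM in the undepleted libraries. DPE2, the cytosolic glucanotransferase, had 18.9 CPM in the ligation-free library and 31.7 CPM in the ligation-based one, a log2 ratio of -0.75, against 19.2 to 25.6 CPM in the undepleted libraries. The repeat of the 700 U library had 32.7 CPM of DPE2, above the ligation-based library, so that the pattern of DPE2 did not hold with the repeat counted, and 9.52 CPM of SEX4. With 1 library per kit, the difference was not tested.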

How the results depend on the processing

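No called member changed sign under any alternative. For 14-day against 8-day seedlings, leaving out 1 library gave 17 to 20 calls and a breakdown median of -0.32 to -0.11. For MNase against RNase I, DESeq2 called 5 members, library totals 1 and all groups in 1 fit 0, and leaving out 1 library gave 0 to 3. For rRNA-depleted against undepleted libraries, library totals gave 10 calls with medians of 0.44 for synthesis and 0.53 for breakdown, the repeat in place of the 700 U library gave a breakdown median of 0.52, and leaving out 1 library gave 6 to 22 calls and breakdown medians of 0.44 to 0.67. For kits against undepleted libraries, DESeq2 called 5 members, and leaving out 1 library gave 5 to 9 calls and breakdown medians of 0.06 to 0.27. Where 1 depleted or kit library was left, it was assumed to vary like the others. The causes were not tested.

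As a mean of log2 CPM over members, the ratio of the arms was -0.07, -0.10 and -0.14 in the 400, 550 and 700 U libraries and -0.10 in the repeat, against -0.54, -0.60 and -0.45 in the 62.5, 125 and 250 U libraries. It was -0.45, -0.52 and -0.53 with MNase, -0.46 in V1, -0.66 in V2, -0.30 in the ligation-free and -0.24 in the ligation-based library. Without BAM3 and GBSS1 only the ratio of summed counts per kb of CDS was taken. That ratio was -1.54, -1.49 and -1.51 in the 400, 550 and 700 U libraries and -1.70 in the repeat. In the 62.5, 125 and 250 U libraries it was -1.90, -1.86 and -1.80. The same ratio was -1.83, -1.96 and -1.85 with MNase, -1.86 in V1, -1.66 in V2, -1.58 in the ligation-free and -1.30 in the ligation-based library. With at least 50 counts, the breakdown median was 0.13 for V1 over V2 and -0.09 for the repeat over the 700 U library, and over the 8-day mean it was -0.06 for V2, 0.10 for the ligation-free and 0.28 for the ligation-based library. On the TMM scale, an alternative chosen after seeing the data, V1 over V2 had medians of 0.02 for breakdown and -0.31 for synthesis, and V2 over the 8-day mean had 0.11 and 0.33. No paired analysis was possible because the numbers of the libraries stand for doses and name no shared material across groups. Depth limits PTST1, APL3 and ISA3, which had few counts in undepleted 14-day libraries.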
